A study of Mus musculus with 6 samples.

Results

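The MYC network is read here from the RNA of 10 genes, Myc, Mycn, Mycl, Max, Mxd1, Mxd3, Mxd4, Mxi1, Mnt and Mga. They were taken by gene symbol through their Ensembl identifiers from 55335 genes counted in each library, and 8 of the 10 passed the filter on low counts, as did 13642 genes in all. The genes were chosen with the difference between the groups already known, so their own differences are given as descriptions without p-values. Sequencing was of poly(A)-selected RNA from 3 scrambled control and 3 IFNγR1KO cultures. Both groups were B16 mouse melanoma cells (the B16-BL6 line) grown in MEM with 10% fetal bovine serum, and no other treatment of the sequenced cultures is named. Both carried the lentiCRISPR v2 vector and had been selected with puromycin. The scrambled control, labelled WT for genotype, carried a guide against GFP, and the IFNγR1KO cells carried a guide against exon 1 of Ifngr1, the gene for the ligand-binding chain of the interferon-γ receptor. The paper lists more than 1 such guide, and which of them the sequenced cells carried is not stated. The knockout cells of the study were screened as single clones, and the paper states that it used single clones rather than mixtures. Its cells for RNA sequencing were seeded in triplicate and left overnight before RNA was taken. Whether each group's 3 cultures came from 1 clone or from several is not stated in the labels. If they shared a clone, the spread between them is the spread of cultures, and a clone's own features cannot be told apart from the loss of the receptor.

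MYC proteins activate transcription as dimers with MAX, which binds E-box DNA, best known as CACGTG, at the promoters of growth, ribosome and metabolism genes. MXD proteins, MXI1, MNT and MGA also pair with MAX and occupy the same DNA, but recruit repressors, the MXD group and MNT through SIN3 and histone deacetylases, and MGA through a PCGF6 complex. MXD genes other than Mxd3 are known for rising as cells leave the cell cycle and differentiate, whereas Mxd3 is known for its expression in dividing cells in S phase. MYC RNA and protein are both short-lived, and in melanoma MYC is known as a driver of proliferation.

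The promoters of 9 of the 10 genes were matched in RefSeq by symbol, with 11 promoters between them (GRCm38.p6, 250 bases before to 50 after each transcript's start), and that of Myc was not. Each was searched on both strands for the E-box CACGTG, its variant CACGCG and the ATF4-type element TGATGNAAT. The promoters of Max, Mnt and Mxd4 each held 1 CACGTG, those of Mycl and Mga each held 1 CACGCG on one strand or the other, and those of Mycn, Mxd1, Mxd3 and Mxi1 held none of the 3 motifs. Over all 32851 promoters of this length, 7.15% held CACGTG, 9.27% held CACGCG and 0.965% held TGATGNAAT. The 4 promoters shown are those of Mxd4, the gene with the largest difference between the groups, of Mxd3, the repressor with a difference in the other direction, and of Max and Mnt, the other carriers of the E-box. They are written 5′ to 3′ on the strand of the gene, with the E-box in capitals.
Mxd4 promoter, chr5:34187661-34187960, minus strand: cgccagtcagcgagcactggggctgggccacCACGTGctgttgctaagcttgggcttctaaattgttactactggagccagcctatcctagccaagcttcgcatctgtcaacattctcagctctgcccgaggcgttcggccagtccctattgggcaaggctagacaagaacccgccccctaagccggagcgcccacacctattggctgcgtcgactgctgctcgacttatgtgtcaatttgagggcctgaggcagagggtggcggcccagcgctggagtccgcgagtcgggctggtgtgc
Mxd3 promoter, chr13:55329682-55329981, minus strand: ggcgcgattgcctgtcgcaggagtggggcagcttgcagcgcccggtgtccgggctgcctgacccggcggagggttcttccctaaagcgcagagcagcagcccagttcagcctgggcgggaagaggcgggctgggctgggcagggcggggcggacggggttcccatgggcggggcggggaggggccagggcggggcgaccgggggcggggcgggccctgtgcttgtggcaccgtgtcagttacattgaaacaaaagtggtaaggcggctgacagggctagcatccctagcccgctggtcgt
Max promoter, chr12:76962199-76962498, minus strand: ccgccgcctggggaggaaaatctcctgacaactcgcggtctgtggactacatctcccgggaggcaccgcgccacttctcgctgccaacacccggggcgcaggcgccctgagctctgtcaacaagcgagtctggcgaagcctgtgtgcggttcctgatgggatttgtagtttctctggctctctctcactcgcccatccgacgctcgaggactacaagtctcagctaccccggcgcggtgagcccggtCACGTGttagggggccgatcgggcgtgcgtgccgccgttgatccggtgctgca
Mnt promoter, chr11:74830674-74830973, plus strand: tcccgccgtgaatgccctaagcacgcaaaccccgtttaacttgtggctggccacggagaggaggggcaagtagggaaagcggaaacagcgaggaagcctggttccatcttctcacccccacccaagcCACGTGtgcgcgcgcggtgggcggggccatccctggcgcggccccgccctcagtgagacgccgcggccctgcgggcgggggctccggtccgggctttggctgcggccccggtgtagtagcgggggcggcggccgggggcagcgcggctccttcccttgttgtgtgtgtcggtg
Counted from the RefSeq start, with -1 as the last base before it, the E-box began at -219 in Mxd4, at -123 in Mnt and at -3 in Max, where it ran across the start itself. A match is a run of letters and not a measured binding site.

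The scrambled control libraries held 9402640 to 10579788 counts on genes and the IFNγR1KO libraries 6698956 to 7409479, so that 1 count was worth 0.0966 to 0.109 counts scaled to the library total (CPM) in the first group and 0.135 to 0.142 CPM in the second. Replicates of a group correlated with r between 0.980 and 0.992 across genes on the log2 scale, and scrambled control 3 and IFNγR1KO 12 were each farther from the other libraries of their group than those were from each other. Ifngr1 itself had 154, 144 and 172 counts in scrambled control and 80, 85 and 82 in IFNγR1KO libraries, a log2 fold change of -0.47 (SE 0.16, edgeR quasi-likelihood adjusted p = 0.0729). Its RNA was lower in every IFNγR1KO library but was still counted, and counts over the whole gene are no direct check of an edit in exon 1. Of 10 melanocytic markers all were detected, at a summed 39100 to 41970 CPM against 34010 to 38490 CPM, and none passed the test. Of the other cell types, 5 of 7 leukocyte, all 4 endothelial and 5 of 6 epithelial markers were at or under 3 counts in every library. The leukocyte marker Csf1r was at 7.86 ± 1.30 and 7.46 ± 1.31 CPM (SD, n = 3 each). Cd68, also of the leukocyte list, had 4 to 11 counts per library, and the epithelial marker Epcam had at most 4. The fibroblast list summed to 57.0 to 75.4 CPM in scrambled control and 128.7 to 133.4 CPM in IFNγR1KO libraries. Of its 6 genes, 2 collagen chains rose, Col1a2 from 58.9 ± 9.26 to 123.9 ± 1.24 CPM (SD, n = 3 each; log2 fold change 1.07, SE 0.14, edgeR adjusted p = 4.8e-04) and Col1a1 from 1.33 ± 0.357 to 5.20 ± 1.39 CPM (SD, n = 3 each; log2 fold change 1.96, SE 0.32, edgeR adjusted p = 0.00175). Pdgfra was at 3.60 ± 0.481 and 2.10 ± 0.327 CPM (SD, n = 3 each; log2 fold change -0.78, SE 0.28, edgeR adjusted p = 0.0866), and Col3a1, Dcn and Lum were at or under 3 counts in every library. The part of the fibroblast list's difference in the results below was not tested. In bulk RNA, fewer cells of a type and less RNA per cell cannot be told apart.

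Myc, which encodes the activator itself (chr15:61985391-61990374, plus strand), had a lower level in IFNγR1KO cells. It was at 116.8, 113.8 and 123.8 CPM in the scrambled control libraries and at 81.4, 97.0 and 94.6 CPM in the IFNγR1KO libraries. Every IFNγR1KO library lay below every scrambled control library, and the means were 118.1 ± 5.12 and 91.0 ± 8.40 CPM (SD, n = 3 each), which is -0.38 as a log2 fold change (SE 0.13). This is a level 1.30-fold lower, and on the log2 scale the smallest difference among the 6 genes whose groups did not overlap. Its paralogs, which encode the neuronal and lung-type activators, were all but silent. Mycn had 0 counts in all scrambled control libraries and 0, 2 and 0 in IFNγR1KO libraries, and Mycl had 2, 0 and 1 against 0, 0 and 1. Both are at or under the 3 counts per library taken as the floor, so no fold change is given. Myc made up at least 99.77% of the summed level of the 3 paralogs per kilobase in every library, so the activator side of the network was, at the RNA level, almost wholly Myc.

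Max, the partner shared by both sides (chr12:76937269-76962201, minus strand), did not separate the groups. It was at 90.2, 112.5 and 110.8 CPM in scrambled control and at 94.5, 92.4 and 109.8 CPM in IFNγR1KO libraries. The groups overlapped, with a log2 fold change of -0.08 (SE 0.14), smaller than its standard error.

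**Figure D1:**
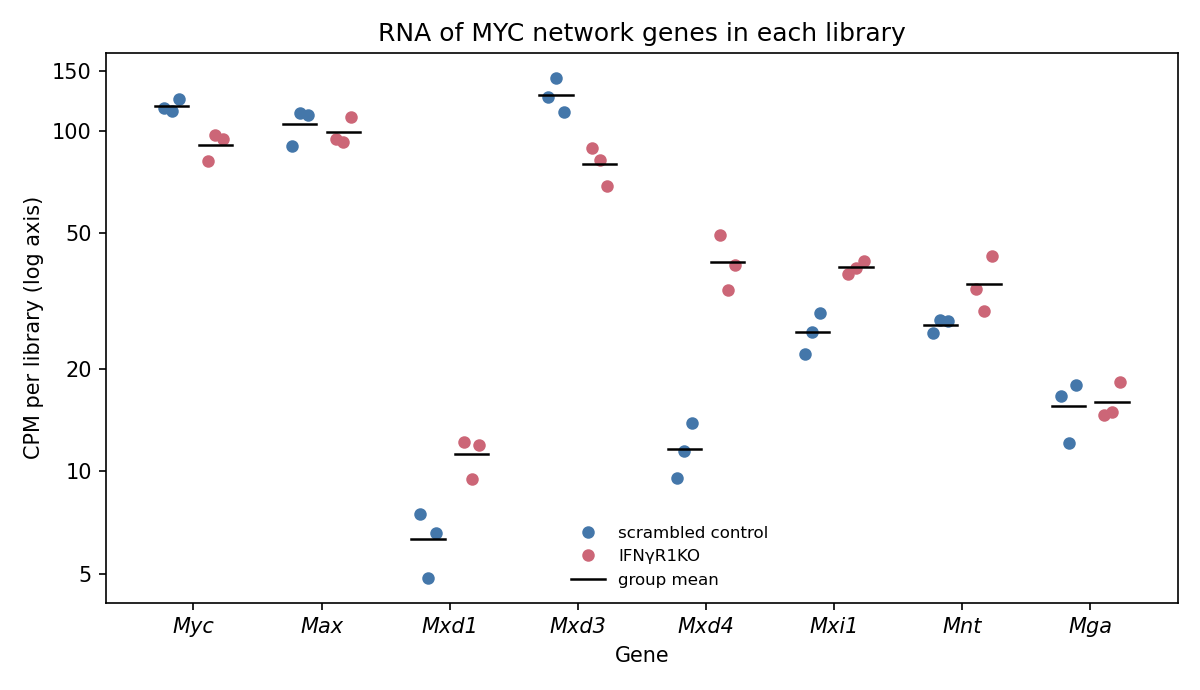
CPM on a log axis for the 8 genes that passed the filter, with 1 point per library, 3 for scrambled control and 3 for IFNγR1KO, and a line at each group mean. Mxd4 goes from between 9.55 and 13.8 CPM to between 34.1 and 49.3 CPM, whereas Myc and Mxd3 lie lower in IFNγR1KO libraries and Max and Mga overlap.

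The 4 MXD genes did not move as a block. Mxd4, which encodes a MAX partner that recruits SIN3 (chr5:34173883-34187720, minus strand), was at 9.55, 11.4 and 13.8 CPM in scrambled control and at 49.3, 34.1 and 40.4 CPM in IFNγR1KO libraries. The lowest IFNγR1KO library was far above the highest scrambled control library. The means were 11.6 ± 2.14 and 41.3 ± 7.62 CPM (SD, n = 3 each), 3.54-fold higher in IFNγR1KO cells, with a log2 fold change of 1.82 (SE 0.19), the largest of the 8. Of its exonic bases 6.06% lie opposite Gm42846, a gene annotated on the other strand whose exons lie wholly within those of Mxd4. Gm42846 was counted at 1.61 ± 0.608 and 6.25 ± 1.94 CPM (SD, n = 3 each), or 1.96 as a log2 fold change (SE 0.33, edgeR adjusted p = 0.0022). The strand setting of the counting is not given in the sources used here, so reads of the 2 genes may not be separated there. Gm42846 had 11 to 59 counts per library although 100% of its exonic bases lie opposite Mxd4. Whether these were reads of Mxd4 counted on the other strand was not tested, so its values are not taken as those of a separate gene.

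Mxd1, the first described MAX partner of the repressor kind (chr6:86647042-86669161, minus strand), had the lowest CPM of the 8 in both groups. It was at 7.49, 4.88 and 6.57 CPM in scrambled control and at 12.2, 9.48 and 11.9 CPM in IFNγR1KO libraries. The groups did not overlap, and the level was 1.78-fold higher in IFNγR1KO cells, with a log2 fold change of 0.83 (SE 0.22). These values rest on 49 to 86 counts per library. Mxi1, also called MXD2 (chr19:53310518-53375810, plus strand), was at 22.04, 25.7 and 29.1 CPM against 37.9, 39.6 and 41.5 CPM. Again every IFNγR1KO library was above every scrambled control library, with a log2 fold change of 0.63 (SE 0.15), and 2.84% of its exonic bases lie opposite another gene, Gm10197.

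Mxd3 (chr13:55325168-55329823, minus strand) differed in the other direction. It was at 125.7, 142.7 and 113.7 CPM in scrambled control and at 88.9, 82.1 and 68.6 CPM in IFNγR1KO libraries. All 3 IFNγR1KO libraries were below the scrambled control libraries, with a log2 fold change of -0.67 (SE 0.15) and a level 1.59-fold lower. Of its exonic bases 4.43% lie opposite Prelid1, a gene of the mitochondrial lipid transfer family at 458.1 ± 44.6 and 391.1 ± 17.8 CPM (SD, n = 3 each), whose log2 fold change of -0.23 (SE 0.14) did not pass the test (edgeR adjusted p = 0.318).

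Mnt and Mga are large repressors that are found in growing as well as resting cells. Mnt had a higher level in IFNγR1KO cells, and Mga did not separate the groups. Mnt (chr11:74830920-74845725, plus strand) was at 25.4, 27.9 and 27.5 CPM in scrambled control and at 34.4, 29.5 and 42.7 CPM in IFNγR1KO libraries. The groups did not overlap, but the nearest libraries were close, the log2 fold change was 0.40 (SE 0.16), and with all libraries thinned to the smallest total the groups overlapped. Mga, which also carries a T-box (chr2:119897228-119969581, plus strand), was at 16.6, 12.1 and 18.0 CPM against 14.6, 14.9 and 18.3 CPM. Its groups overlapped, with a log2 fold change of 0.03 (SE 0.19).

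**Figure D2:**
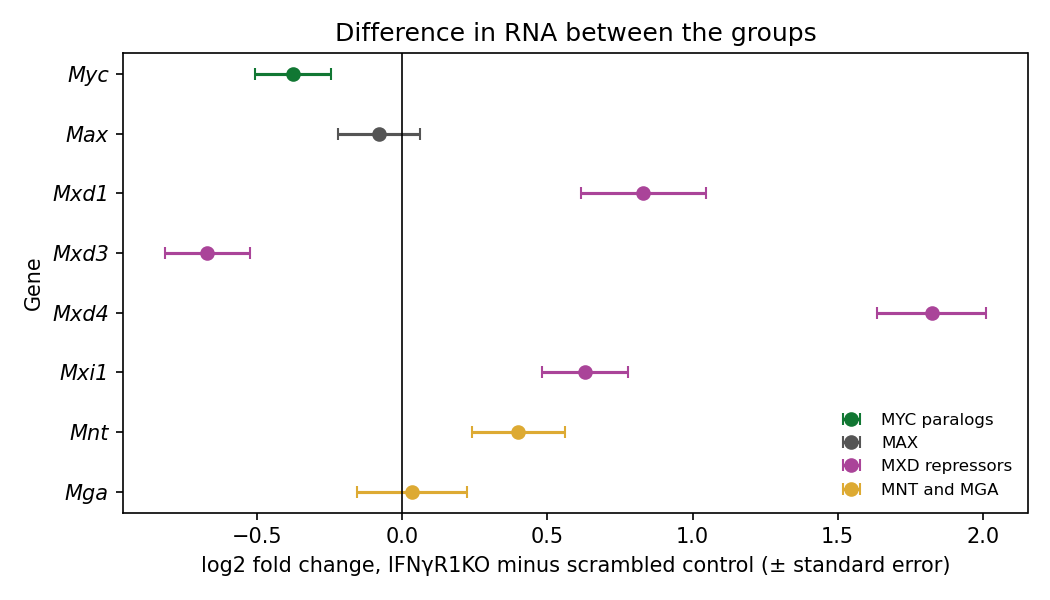
log2 fold change of IFNγR1KO minus scrambled control for each of the 8 genes, with bars of 1 standard error from edgeR and colours for the roles in the network. Mxd4 lies at 1.82, Mxd1, Mxi1 and Mnt between 0.40 and 0.83, Max and Mga near 0, and Myc and Mxd3 below 0.

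In all, 6 of the 8 tested genes had groups that did not overlap, 4 of them higher and 2 lower in IFNγR1KO cells. Over all 13642 tested genes 32.6% did not overlap, 16% higher and 16.6% lower, and since the genes were chosen on this comparison nothing is read from the difference between these shares. Without scrambled control 1, the groups of Max did not overlap either, with lower values in IFNγR1KO cells, and 7 of the 8 genes then did not overlap.

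Levels were compared between genes only per length, as CPM per kilobase of exonic sequence, which corresponds to FPKM. In scrambled control cells the order was Mxd3 at 53.8 ± 6.14 FPKM, Myc at 43.5 ± 1.88, Max at 29.0 ± 3.45, Mnt at 5.82 ± 0.289, Mxi1 at 3.75 ± 0.517, Mxd4 at 1.37 ± 0.252, Mga at 1.02 ± 0.199 and Mxd1 at 0.893 ± 0.188 (SD, n = 3). Among neighbours in that order, only Mxd4 and Mga, and Mga and Mxd1, had overlapping ranges. In IFNγR1KO cells Mxd3 at 33.7 ± 4.37 FPKM and Myc at 33.5 ± 3.09 could no longer be ordered, since neither was above the other in every library. The ranges of Myc and of Max, at 27.5 ± 2.64 FPKM, overlapped too, but Myc was above Max in every IFNγR1KO library. Mnt at 7.68 ± 1.44 FPKM came next, then Mxi1 at 5.81 ± 0.260 and Mxd4 at 4.86 ± 0.898, whose ranges overlapped. Mxd1 at 1.59 ± 0.213 and Mga at 1.04 ± 0.132 FPKM came last, and here Mxd1 was above Mga in every library. With the length of the longest transcript in place of all exonic bases, Max was above Myc in every IFNγR1KO library, with means of 50.9 and 38.9 FPKM. In scrambled control cells the means were 53.8 and 50.5 FPKM but the ranges overlapped, with Max at 46.45 and Myc at 49.96 FPKM in scrambled control 1.

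The make-up of the repressor side differed more than its sum. The summed FPKM of Mxd1, Mxd3, Mxd4, Mxi1, Mnt and Mga was 65.0, 72.8 and 62.0 in scrambled control and 59.0, 53.2 and 51.9 in IFNγR1KO libraries, lower in every IFNγR1KO library. Mxd3 alone made up 80.6 ± 2.73% of that sum in scrambled control and 61.5 ± 5.03% in IFNγR1KO cells (SD, n = 3). The share of Mxd4 was 2.07 ± 0.487% and 8.86 ± 1.17%, that of Mxi1 5.67 ± 1.05% and 10.7 ± 1.16%, that of Mnt 8.77 ± 0.729% and 14.1 ± 3.19%, and that of Mxd1 1.36 ± 0.362% and 2.90 ± 0.367%. The groups did not overlap for these 5 shares. Only that of Mga did overlap, at 1.55 ± 0.415% and 1.91 ± 0.348%. Shares of 1 sum move together, so a lower share of Mxd3 raises the others.

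**Figure D3:**
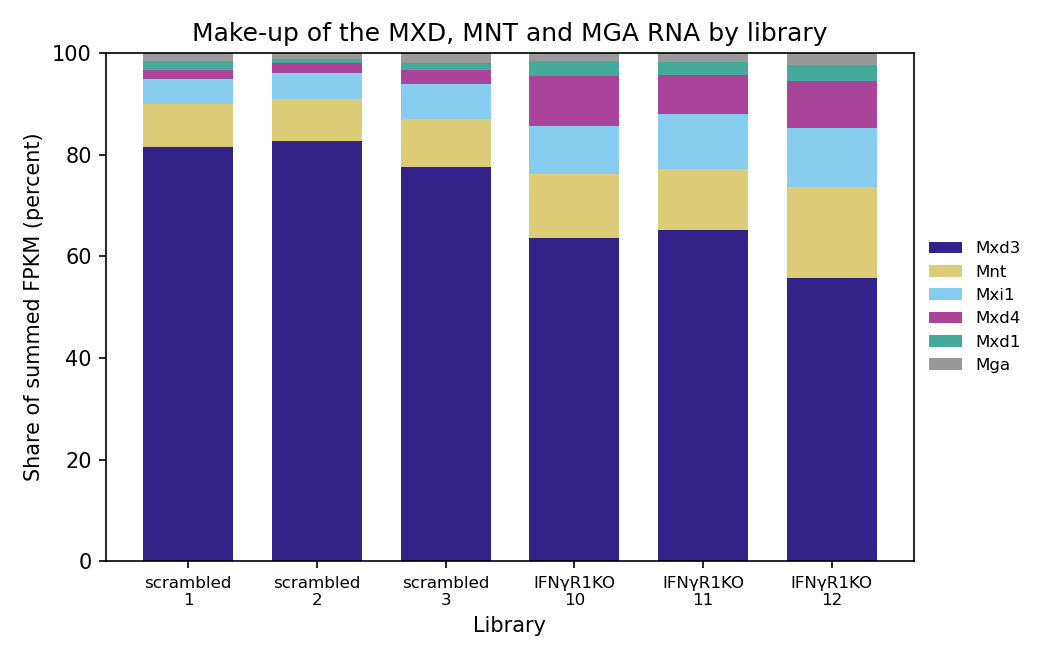
Share in percent of the summed FPKM of the 6 repressor genes, as 1 stacked bar per library. Mxd3 takes between 77.5 and 82.7% in scrambled control and between 55.8 and 65.2% in IFNγR1KO libraries, and Mxd4 takes at most 2.63% and at least 7.57%.

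Activators were then set against repressors. The ratio of the MYC paralogs to the 6 repressors in FPKM was 0.662, 0.575 and 0.736 in scrambled control and 0.508, 0.673 and 0.671 in IFNγR1KO libraries. The groups overlapped, with a log2 difference of -0.10 between the group values, which ranged from -0.19 to 0.04 when 1 library was left out at a time. Without correction for length the same ratio was 0.555 ± 0.0444 in scrambled control and 0.410 ± 0.0616 in IFNγR1KO cells (SD, n = 3), a log2 difference of -0.445 without overlap. The step between these values lies in the exonic lengths, 2369 bases for Mxd3 against 8483 for Mxd4, which give long genes more weight in raw counts. The ratio of Max to Myc was 0.668 ± 0.0823 and 0.823 ± 0.0914 (SD, n = 3), with overlap. RNA levels give no protein levels, and none were analysed here.

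Partners and target genes outside the 10 were read from 12 lists of 243 genes, of which 234 were tested. At an adjusted p under 0.05 (edgeR quasi-likelihood, all tested genes), 13 rose and 54 fell in IFNγR1KO cells. Of the 54, 20 were cell cycle genes and 13 were genes of nucleotide and polyamine synthesis. The lists too were chosen with earlier results of these data known, so their counts are given as descriptions. Over all tested genes 7.73% rose and 7.62% fell, 15.3% in all and 5.2% with an absolute log2 fold change above 1 as well, with a median log2 fold change of 0.00. Leaving out scrambled control 2, IFNγR1KO 10 or IFNγR1KO 11 lowered the counts in the lists to 8 and 32, 7 and 31, or 7 and 30. Of the 31 genes named from the lists, 18 lost the call when at least 1 library was left out, and 13 kept it in all 12 alternatives.

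The parallel MLX branch, which senses glucose, was hardly measurable beyond its core. Mlx, the MAX-like partner, was at 85.5 ± 15.01 and 76.3 ± 17.9 CPM (SD, n = 3 each; log2 fold change -0.16, SE 0.19, edgeR adjusted p = 0.626). Mlxip, its glucose-sensing partner MondoA, was at 39.4 ± 6.24 and 38.1 ± 4.35 CPM (log2 fold change -0.05, SE 0.16, edgeR adjusted p = 0.878). Mlxipl had at most 5 counts in a library, Txnip, the usual reporter of this branch, between 2 and 14, and Arrdc4 none, so these 3 were not tested.

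Of 18 tested SIN3 and NCOR corepressor genes, through which MXD proteins and MNT silence DNA, 1 fell and none rose (median -0.05). This was Rbbp7, a histone-binding subunit, with a log2 fold change of -0.44 (SE 0.12, edgeR adjusted p = 0.0316), a call lost without any one of 5 libraries. Of 17 MYC coactivator genes 2 fell and none rose (median 0.02), namely Ruvbl1, an ATPase of chromatin remodellers, at -0.57 (SE 0.14, edgeR adjusted p = 0.0161) and Wdr5, which anchors MYC to chromatin, at -0.47 (SE 0.13, edgeR adjusted p = 0.0272). The first was lost without scrambled control 2, IFNγR1KO 10 or IFNγR1KO 11, and the second without any one of 5 libraries. Of 13 genes of the PCGF6-MGA complex 5 fell and 1 rose (median -0.21), and without IFNγR1KO 10 or IFNγR1KO 11 only 2 fell. Tfdp1, a dimer partner of E2F factors, fell by 0.82 on the log2 scale (SE 0.12, edgeR adjusted p = 0.00115) and E2f6, the repressor E2F of this complex, by 0.65 (SE 0.13, edgeR adjusted p = 0.0055), and both calls held in every alternative. Ring1, its ubiquitin ligase, rose by 0.61 (SE 0.16, edgeR adjusted p = 0.0225), a call lost without any one of 4 libraries.

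Genes of MYC protein turnover and regulators of the Myc transcript were read separately. Of 18 genes of MYC protein turnover 4 fell and 1 rose (median -0.07), and without scrambled control 2 or IFNγR1KO 11 only 1 fell. Skp2, a ubiquitin ligase that both marks and activates MYC, went from 61.2 ± 2.46 to 30.5 ± 4.62 CPM (SD, n = 3 each; log2 fold change -1.004, SE 0.15, edgeR adjusted p = 0.00087), and its call held in every alternative. Aurka, a kinase that shields MYC family proteins from degradation, fell by 0.51 (SE 0.14, edgeR adjusted p = 0.0236). Usp36, a nucleolar deubiquitinase of MYC, rose by 0.61 (SE 0.15, edgeR adjusted p = 0.0172). Both of these calls were lost without scrambled control 2 or IFNγR1KO 11, and that of Aurka also without scrambled control 1. Of 15 regulators of the Myc transcript 1 fell and none rose (median -0.12), and this was Fubp1, a factor that binds far upstream of Myc, at -0.56 (SE 0.12, edgeR adjusted p = 0.00986), which was lost without IFNγR1KO 11.

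Among target genes, those of the cell cycle stood lowest. Of 25 tested genes 20 fell and none rose, with -0.86 as the median log2 fold change and calls between -1.49 and -0.68. Ccnd2, a D-type cyclin, was called higher in 5 of 12 alternatives, among them DESeq2. The number that fell stayed between 16 and 20 when 1 library was left out. Cdca7, a MYC-responsive chromatin factor, went from 46.8 ± 2.56 to 16.6 ± 3.09 CPM (SD, n = 3 each; log2 fold change -1.49, SE 0.16, edgeR adjusted p = 0.00012). Cdc25a, the phosphatase that activates CDK2, went from 84.4 ± 11.6 to 39.1 ± 5.998 CPM (SD, n = 3 each; log2 fold change -1.11, SE 0.16, edgeR adjusted p = 0.00074). Many of these genes also answer to E2F factors, and the list cannot tell the regulators apart.

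Of 29 genes of nucleotide and polyamine synthesis 13 fell and 2 rose (median -0.40), and 8 fell without scrambled control 2, IFNγR1KO 10 or IFNγR1KO 11. Rrm2, the subunit of ribonucleotide reductase that limits DNA precursors, went from 677.4 ± 10.7 to 327.2 ± 13.02 CPM (SD, n = 3 each; log2 fold change -1.05, SE 0.14, edgeR adjusted p = 0.00039). Amd1, a decarboxylase of polyamine synthesis, fell by 1.13 (SE 0.14, edgeR adjusted p = 0.00029). The 2 that rose, Shmt2 by 1.11 (SE 0.14, edgeR adjusted p = 0.0004) and Mthfd2 by 1.09 (SE 0.15, edgeR adjusted p = 0.0007), encode folate enzymes of the mitochondrion. All 4 of these calls held in every alternative.

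Ribosome biogenesis, the best known output of MYC, showed shares of calls near or below those of all genes. Of 40 genes 2 fell and 1 rose, with a median of -0.16. Nolc1, a nucleolar chaperone, fell by 0.65 (SE 0.17, edgeR adjusted p = 0.0225), Dkc1, the pseudouridine synthase, fell by 0.48 (SE 0.13, edgeR adjusted p = 0.0276), and Wdr74, a factor of the large subunit, rose by 0.50 (SE 0.14, edgeR adjusted p = 0.028). These counts were unstable: none fell without scrambled control 2, IFNγR1KO 10 or IFNγR1KO 11, and 7 fell without IFNγR1KO 12. Each of these 3 calls was lost without 3 or 4 of the libraries.

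Of 19 tested genes of glucose and glutamine use 2 rose and 2 fell (median -0.25). Slc1a5, a glutamine transporter, went from 63.5 ± 7.43 to 177.0 ± 19.7 CPM (SD, n = 3 each; log2 fold change 1.48, SE 0.15, edgeR adjusted p = 5.5e-05), and this call held in every alternative. Pdk1, which restrains the use of pyruvate in mitochondria, rose by 0.47 (SE 0.13, edgeR adjusted p = 0.0321). Slc16a1, a lactate transporter, fell by 0.58 (SE 0.14, edgeR adjusted p = 0.0145) and Pgam1, of glycolysis, by 0.46 (SE 0.14, edgeR adjusted p = 0.0459). None of these 3 calls held without IFNγR1KO 10 or IFNγR1KO 11, and those of Pdk1 and Pgam1 were also lost without scrambled control 2 or scrambled control 3.

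Of 26 translation and chaperone genes 2 rose and 2 fell (median -0.15). Eif4ebp1, an inhibitor of cap-dependent translation, went from 125.2 ± 24.8 to 294.8 ± 9.90 CPM (SD, n = 3 each; log2 fold change 1.24, SE 0.16, edgeR adjusted p = 0.00035) and held in every alternative. Eif2s2, a subunit of the initiation factor eIF2, rose by 0.67 (SE 0.18, edgeR adjusted p = 0.0273). Eif4e, the cap-binding factor, fell by 0.45 (SE 0.14, edgeR adjusted p = 0.0407) and Tfrc, the transferrin receptor, by 0.50 (SE 0.15, edgeR adjusted p = 0.0418). The last 3 were lost without 4 or 5 of the libraries in turn, and none of the list fell without IFNγR1KO 10 or IFNγR1KO 11.

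Of 12 tested genes that MYC is known to repress, 4 rose and 2 fell, and the median was 0.33. Gadd45a, a growth arrest gene induced by stress, went from 11.9 ± 0.972 to 88.3 ± 5.94 CPM (SD, n = 3 each; log2 fold change 2.89, SE 0.14, edgeR adjusted p = 1.4e-07), though 19.1% of its exonic bases lie opposite E230016M11Rik. Cdkn1b, the CDK inhibitor p27, went from 115.7 ± 16.96 to 216.3 ± 47.3 CPM (SD, n = 3 each; log2 fold change 0.90, SE 0.18, edgeR adjusted p = 0.00476). Both calls held in every alternative. Gadd45g, of the same family as Gadd45a, fell by 1.11 (SE 0.30, edgeR adjusted p = 0.0279) and Thbs1, an inhibitor of vessel growth, by 0.81 (SE 0.25, edgeR adjusted p = 0.0454). The last 2 calls were lost without 3 and 5 of the libraries in turn, and without scrambled control 2 or IFNγR1KO 10 only 2 genes of the list rose and none fell.

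**Figure D4:**
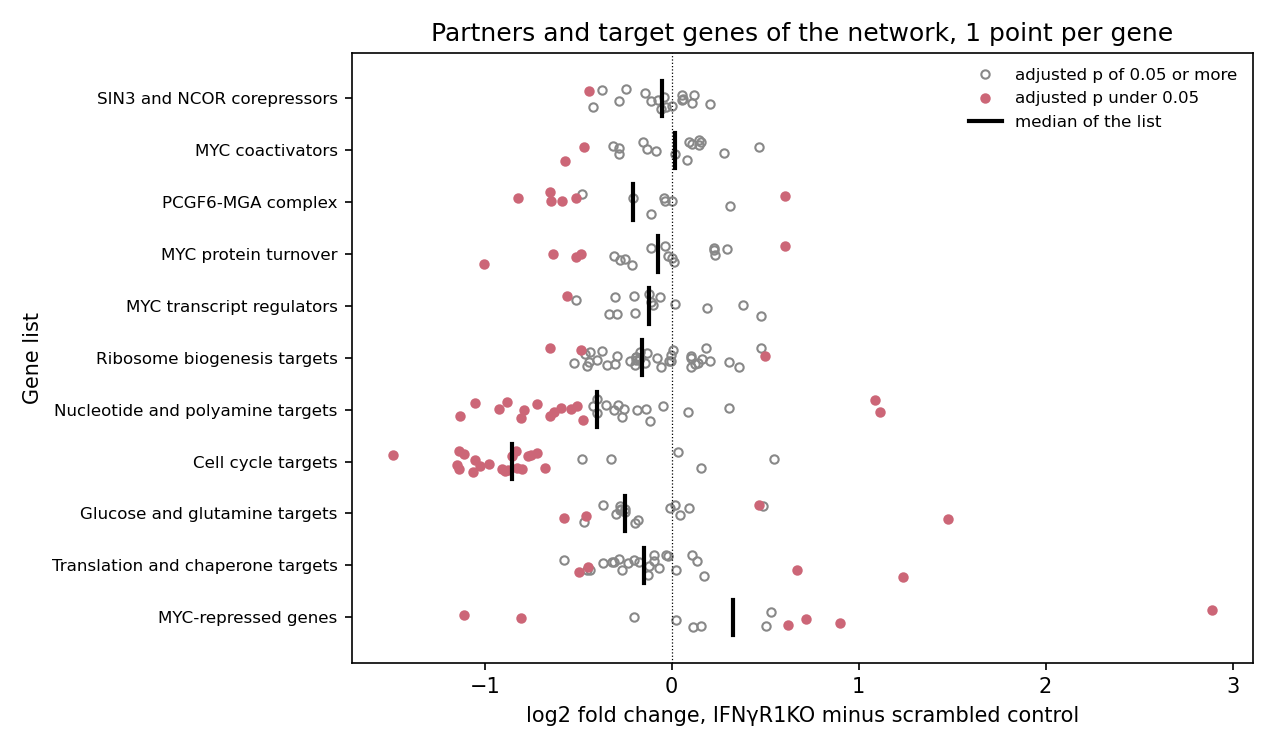
log2 fold change of IFNγR1KO minus scrambled control for each tested gene of 11 lists, filled where the edgeR adjusted p is under 0.05, with a bar at the median of the list. The cell cycle list has its median at -0.86 and 20 filled points below 0, and that of genes repressed by MYC has its median at 0.33.

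The genes whose levels ran most like those of Myc and of Mxd4 across the 6 libraries were found by the root mean square difference of log2 CPM, each gene centred on its own mean, over 11060 genes of at least 5 CPM. For Myc these were Zdhhc6, a palmitoyltransferase, at a difference of 0.0248, Akap1, a mitochondrial anchor protein, at 0.0367, Camkk2, a calcium-dependent kinase, at 0.0378, Ncapg, a condensin subunit, at 0.0413, and G3bp1, a stress granule protein, at 0.0443, where the median gene was at 0.285. Their own log2 fold changes lay between -0.40 and -0.33. For Mxd4 they were Nfil3, a bZIP repressor, at 0.181, Plcxd2, a phospholipase-like protein, at 0.187, Asns, asparagine synthetase, at 0.194, Trim46, a microtubule organizer, at 0.199, and Atf5, a bZIP factor, at 0.199, where the median gene was at 0.943. Their log2 fold changes were between 1.63 and 1.98. With 6 libraries in 2 groups, likeness is set mostly by the difference between the groups.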

How the data were processed

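RNA-seq of 3 scrambled control and 3 IFNγR1KO cultures was used. The authors aligned reads to GRCm38 with STAR 2.7.5a, counted them per gene with HTSeq 0.11.2 and deposited raw counts for each library. Annotation release and strand setting are not given in the sources used here. Between 46.92 and 47.70% of the entries in a table were reads that the counting assigned to no gene, and these stayed out. The authors compared groups with DESeq2 1.34.0.

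From the deposited counts, edgeR 4.0.16 in R 4.3.3 was run with filterByExpr (minimum count 10, minimum total 15), TMM and the two-sided quasi-likelihood test on all 6 libraries, with Benjamini-Hochberg adjustment over 13642 genes. The SE is the log2 fold change over the square root of F. CPM used TMM-scaled totals, and FPKM is CPM per kilobase of exonic bases. A count of 3 or fewer in a library was taken as the floor. Likeness used log2(CPM + 0.5). Symbols, positions and lengths came from GENCODE M21, which holds 55154 of 55335 identifiers.

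All members and lists were chosen with earlier results of these data known. Named were all members, the MLX branch, the 2 genes of each list with the lowest adjusted p in either direction, if called, and the 5 genes most like Myc and most like the member with the largest difference. Nothing in the labels says that the cultures were independent, and the paper describes cells seeded in triplicate overnight. The p-values therefore measure the spread between these samples, which may be technical. Alternatives were DESeq2 1.42.0, other scalings, filters and thresholds, thinning, other lengths, and leaving out each library. The fits were tested on simulated data.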

Additional observations from a re-analysis of the deposited data

How the results depend on the processing

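Under all 12 alternatives the log2 fold changes of the 8 members moved by less than their own standard errors. All members but Mga kept their direction. The ranges were 1.68 to 1.97 for Mxd4, 0.67 to 0.96 for Mxd1, 0.53 to 0.73 for Mxi1 and 0.24 to 0.53 for Mnt. They were -0.76 to -0.58 for Mxd3 and -0.41 to -0.30 for Myc. Max (-0.18 to -0.02) and Mga (-0.12 to 0.15) stayed near 0, and Mga changed sign. The number of members without overlap was 6, 5 after thinning, and 6 to 7 with 1 library left out. Over all genes 1054 rose and 1039 fell. With an absolute log2 fold change above 1 as well, 443 and 267 did, and with 1 library left out the ranges were 535 to 1372 and 457 to 1452. In the lists 13 rose and 54 fell, 5 and 12 with the fold threshold, and 7 to 16 and 30 to 67 with 1 library left out. The lowest of these counts came without scrambled control 2, IFNγR1KO 10 or IFNγR1KO 11, and the highest without IFNγR1KO 12. The cause was not tested. DESeq2 gave 59 genes that fell in the lists, and 3 and 5 rather than 2 and 2 among ribosome biogenesis and translation genes, which were 6 and 5 without a filter and 2 and 0 with upper-quartile scaling. The MYC-to-repressor ratio had a log2 difference of -0.10, -0.11 with the longest transcript, -0.445 from raw counts, and -0.19 to 0.04 with 1 library left out. No scaling moved the median log2 fold change of all genes beyond 0.04. No paired analysis was possible because the replicate numbers, 1 to 3 and 10 to 12, are not shared between the groups. Mycn, Mycl, Mlxipl, Txnip and Arrdc4 did not pass the filter on low counts, so differences in them were not detectable at this depth.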

Other observations

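Within the list of nucleotide and polyamine synthesis, the enzymes of the 2 folate compartments ran in opposite directions. These genes were singled out after their values were seen. The cytosolic enzymes fell, Shmt1 from 53.7 ± 4.64 to 32.6 ± 2.40 CPM (SD, n = 3 each; log2 fold change -0.72, SE 0.14, edgeR adjusted p = 0.00432) and Mthfd1 from 131.6 ± 24.2 to 85.1 ± 15.3 CPM (SD, n = 3 each; log2 fold change -0.63, SE 0.17, edgeR adjusted p = 0.0276). The call of Mthfd1 was lost without scrambled control 2, scrambled control 3, IFNγR1KO 10 or IFNγR1KO 11 (adjusted p 0.0626 to 0.139). Their mitochondrial counterparts rose, Shmt2 from 265.6 ± 23.3 to 574.1 ± 46.6 CPM and Mthfd2 from 233.8 ± 30.0 to 497.0 ± 50.7 CPM (SD, n = 3 each).

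Among the D-type cyclins of the cell cycle list, also chosen after their values were seen, Ccnd1 fell from 328.0 ± 54.5 to 166.9 ± 32.2 CPM (SD, n = 3 each; log2 fold change -0.97, SE 0.17, edgeR adjusted p = 0.00288). Ccnd2 was at 317.1 ± 72.9 and 462.9 ± 41.7 CPM (SD, n = 3 each; log2 fold change 0.55, SE 0.17, edgeR adjusted p = 0.0513), without overlap between the groups but not past the threshold. It passed in DESeq2 (adjusted p = 0.0259), with upper-quartile scaling, without a filter, after thinning and without scrambled control 3, 5 of 12 alternatives, whose adjusted p ranged from 0.00629 to 0.196.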
